A study of Mus musculus with 19 samples.

Results

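The circadian clock genes examined here are 10 genes of the mouse core clock and of its first layer of outputs: Per1, Per2, Per3, Cry1, Cry2, Dbp, Tef, Nr1d1, Nr1d2 and Bhlhe40. They were chosen by name, and every probe set annotated to 1 of them alone was taken. A probe set is a group of short probes that together read 1 transcript. Of the 10 genes, 9 had such a probe set, 16 probe sets of 45141 in all, and these 9 stood among 17097 genes that had a probe set of their own. The expression of Nr1d1 was not analysed here. Where a gene had several probe sets, the one with the highest mean level over all arrays stands for the gene.

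Kidney RNA of 19 male mice without renal ischemia-reperfusion injury was hybridized to Affymetrix HT MG-430 PM arrays, and each mouse had its own array. There were 5 aged fasted and 5 aged ad libitum fed mice, and 4 young fasted and 5 young ad libitum fed mice, and fasting lasted 3 days with free access to water. The aged mice were F1-FVB/C57BL6-hybrid animals of 73 weeks and 47 g on average, and the young mice were C57BL/6J animals of 10 to 14 weeks and 22 to 25 g. No transgene, deletion or drug distinguished any group. Age, strain, body weight and the study cohort changed together, so that a difference between aged and young mice cannot be assigned to 1 of them. The paper gives equal periods of light and dark with the housing of the aged mice, and it refers to earlier work for the young mice. The hour at which the kidneys were taken was not given in the sources used here. The labels number the young fasted mice before all young ad libitum fed mice and the aged mice in mixed order, and whether these numbers follow the order of sampling is not stated. Kidneys of 1 moment per mouse hold no time course, and therefore a shift of phase, another hour of sampling and a lasting change of level cannot be told apart in any of the values below.

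The mammalian clock is a feedback loop of transcription. The activators Arntl (BMAL1) and Clock, or Npas2 in place of Clock, bind E-box sequences and drive the Per and Cry genes, whose proteins return to the nucleus and inhibit the activators. The same E-boxes drive the nuclear receptors Nr1d1 and Nr1d2 (REV-ERBα and β), which repress Arntl through RORE sequences, and the PAR bZIP factors Dbp, Tef and Hlf, which act on D-box sequences of output genes against the repressor Nfil3. Arntl and the E-box targets therefore peak at opposite times of day, Dbp with one of the steepest rhythms known. Bhlhe40 (DEC1) is a repressor that competes for E-boxes and also answers to hypoxia, hormones and nutrients. Per1 is known to respond quickly to glucocorticoids and to cAMP. In the kidney, where each nephron segment carries a clock, sodium and water transport follow the time of day.

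Levels are given on the log2 scale of the deposited values, so that a step of 1 is a doubling. The array medians lay between 3.46 and 3.49 in aged fasted, 3.44 and 3.48 in aged ad libitum, 4.18 and 4.21 in young fasted and 4.15 and 4.19 in young ad libitum mice. Each age thus seems to have had its own normalization, and levels were tested between diets within an age, not between ages. The 5 measured kidney markers (of 8 listed) had a median level of at least 9.84 on every array, and the 5 adrenal cortex markers stayed at or below 3.49. Markers of hepatocytes, brown adipocytes and macrophages varied between arrays, and their levels are given beside some of the results below.

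In young kidneys 4 of the 9 clock genes (44.4%) passed the test at an adjusted p of at most 0.05 in limma, against 23.2% of all genes. Per1, Dbp and Tef rose and Bhlhe40 fell, where 10.7% of all genes rose and 12.5% fell, and the changes of Per1, Dbp and Bhlhe40 also reached a fold change of at least 1.5, which 6.49% of all genes did. In aged kidneys 1 of the 9 (11.1%) passed, Bhlhe40, which rose, against 9.16% of all genes (4.32% higher and 4.84% lower). That share is near the background. The fold minimum was reached by 0 of the 9 in aged kidneys, against 2.67% of all genes, and 2 of the 9 had an unadjusted p of at most 0.05 in limma. The median log2 fold change of the 9 genes was 0.30 in aged and 0.39 in young kidneys, against -0.01 over all genes in either age, and 9 of 9 values in aged and 7 of 9 in young kidneys were above 0. A difference between the 2 fasting effects was found for 2 of the 9 genes (22.2%), Per1 (lower in aged) and Bhlhe40 (higher in aged), against 2.44% of all genes, 1.55% with the higher and 0.895% with the lower effect in aged kidneys.

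**Figure D1:**
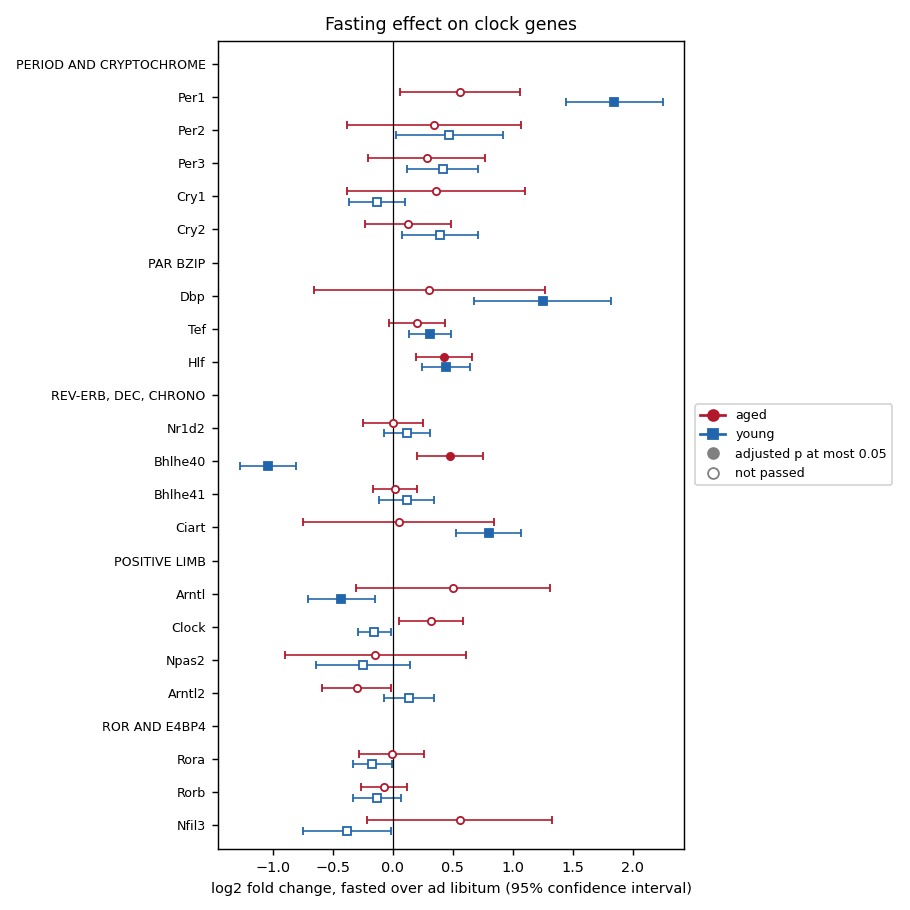
Log2 fold change of fasted over ad libitum fed kidneys (x axis, with its 95% confidence interval) for the listed clock genes and the other genes of the loop, aged mice as red circles above young mice as blue squares. Filled symbols passed the test at an adjusted p of at most 0.05. The 2 ages lie on opposite sides of 0 for Bhlhe40, at 0.48 in aged and -1.04 in young kidneys.

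Per1, the period gene that hormones induce most directly, was the member that rose furthest in young kidneys (probe set 1449851_PM_at). Its level was 6.94, 7.50, 7.33 and 7.97 in the 4 young fasted mice, against 5.52, 5.87, 5.52, 5.79 and 5.23 in the 5 young ad libitum fed mice. Every fasted mouse was above every ad libitum fed mouse, and the lowest fasted value lay more than 1 log2 unit over the highest ad libitum fed one. The fold change was 3.60 (log2 1.85, SE 0.18, 95% confidence interval 1.44 to 2.25, limma adjusted p = 4.56e-05), and it passed the test with any single young array left out, at 1.67 to 2.01. In aged kidneys Per1 stood at 6.98, 7.65, 7.55, 8.23 and 8.43 in the fasted mice, against 7.40, 7.10, 7.29, 6.82 and 7.43 in the ad libitum fed mice. Here 4 of the 5 fasted mice were above all ad libitum fed mice and the fasted mouse 33 was below 4 of the 5. The log2 difference of 0.56 (SE 0.23, interval 0.06 to 1.07) did not pass (limma adjusted p = 0.203). Without mouse 33 it was 0.76 and passed (adjusted p = 0.0303, while the adjusted p ran up to 0.403 over all alternatives).

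The fasting effect on Per1 was smaller in aged than in young kidneys by 1.28 on the log2 scale (SE 0.32, interval of the difference -1.96 to -0.61, limma adjusted p = 0.0446). This call was close to the threshold. It held in 5 of the 19 fits that left out 1 array, in which the difference ranged from -1.45 to -1.09 and the adjusted p from 0.0192 to 0.105. Per1 was at 6.82 to 7.43 in the ad libitum fed aged mice and at 5.23 to 5.87 in the ad libitum fed young mice. The array medians also differed between the ages. Since strain, handling and normalization differ between the ages as well, these levels are given side by side without a test.

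Bhlhe40, the E-box repressor, was the member with opposite changes in the 2 ages (probe set 1418025_PM_at). In young kidneys its level was 7.48, 7.81, 7.92 and 8.05 in fasted mice, against 8.65, 8.94, 8.96, 8.92 and 8.81 in ad libitum fed mice. The groups did not overlap, and the transcript was 2.06-fold lower after fasting (log2 -1.04, SE 0.11, interval -1.28 to -0.80, limma adjusted p = 5.97e-05). In aged kidneys the level was 9.71, 10.02, 9.56, 9.80 and 9.56 in fasted mice, against 9.61, 9.07, 9.45, 8.98 and 9.16 in ad libitum fed mice. The fasted mice were higher apart from the ad libitum fed mouse 34, whose value lay within the fasted range. The rise was 1.39-fold (log2 0.48, SE 0.13, interval 0.20 to 0.76, limma adjusted p = 0.0445) and below the fold minimum of 1.5. It passed in only 2 of the 10 fits that left out 1 aged array, without the ad libitum fed mouse 34 or 37, with an adjusted p of 0.0182 to 0.108 and a log2 fold change of 0.41 to 0.57.

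The difference between the 2 fasting effects on Bhlhe40, aged minus young, was 1.52 (SE 0.18, interval 1.15 to 1.89, limma adjusted p = 0.000121). It passed in all 19 fits that left out 1 array, at 1.41 to 1.61. Of the 9 genes it is thus the 1 whose age difference passed in every such fit. In a whole kidney, fewer cells of a type and less RNA per cell cannot be told apart. Of 5 macrophage markers, 4 fell in young kidneys, where 12.5% of all genes fell. The median level of these markers in young kidneys was 5.38 to 5.75 in fasted and 5.97 to 6.30 in ad libitum fed mice. In aged kidneys 1 of the 5 fell, where 4.84% of all genes fell. The median level of the markers in aged kidneys was 4.97 to 5.81 in fasted and 5.56 to 5.76 in ad libitum fed mice. The part of the macrophage markers in the Bhlhe40 values was not tested.

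**Figure D2:**
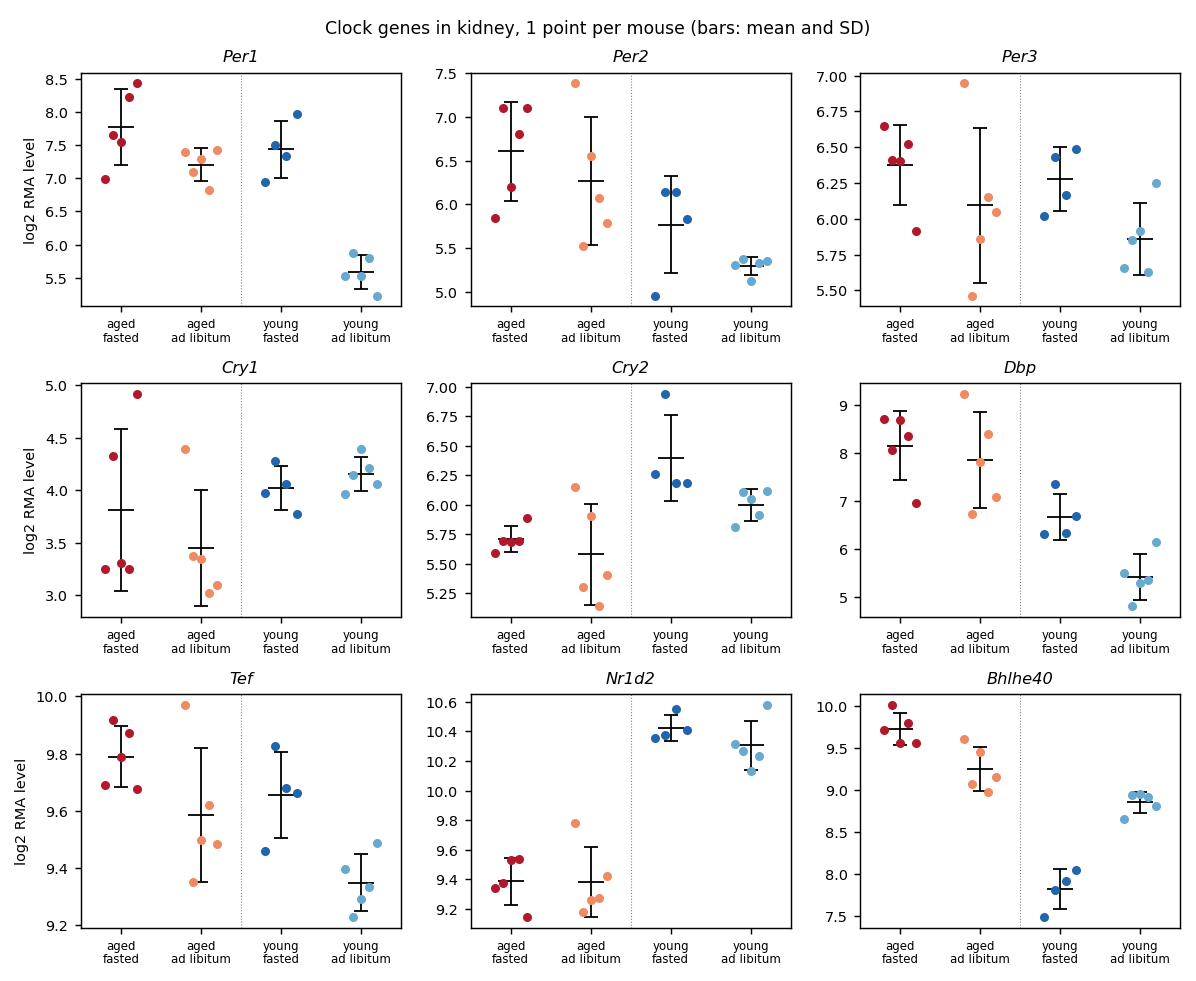
Level of the 9 measured clock genes on the log2 scale (y axis) in each mouse, with the group mean and SD, for aged fasted, aged ad libitum, young fasted and young ad libitum fed mice. The fasted and ad libitum fed points of young mice separate for Per1, Cry2, Dbp and Bhlhe40, and those of aged mice overlap for all 9 genes.

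Dbp, the PAR bZIP factor with the steepest rhythm, rose in young kidneys (probe set 1418174_PM_at). Its level was 6.32, 7.35, 6.33 and 6.70 in young fasted mice, against 5.51, 4.81, 5.29, 5.36 and 6.15 in young ad libitum fed mice. The groups did not overlap, although the lowest fasted mouse and the highest ad libitum fed mouse were close. The rise was 2.38-fold (log2 1.25, SE 0.26, interval 0.68 to 1.82, limma adjusted p = 0.00556) and passed with any single young array left out, at 1.03 to 1.43. In aged kidneys Dbp was 8.71, 8.08, 8.70, 8.35 and 6.97 in fasted mice, against 9.23, 6.74, 7.81, 8.41 and 7.10 in ad libitum fed mice. The ad libitum fed group alone spanned 2.49 log2 units and enclosed the lowest and the highest fasted value. The log2 difference of 0.30 (SE 0.44, interval -0.66 to 1.27) did not pass (adjusted p = 0.793), and the interval includes a rise as large as that of the young mice. The difference between the ages, -0.95 (SE 0.58, interval -2.15 to 0.26), did not pass either (limma adjusted p = 0.524).

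Tef, the second PAR bZIP factor, had a small rise in young kidneys that rested on its brighter probe set (1424175_PM_at). The level ranged over 9.46 to 9.83 in young fasted mice and 9.23 to 9.49 in the young mice with food, so that 1 ad libitum fed mouse reached into the fasted range. The rise was 1.24-fold (log2 0.31, SE 0.08, limma adjusted p = 0.0192) and was lost without the fasted mouse 340 (adjusted p = 0.0572) and in the ordinary test without moderated variances. The dimmer probe set of Tef gave -0.19 (adjusted p = 0.234), and the mean of both gave 0.06 (adjusted p = 0.608, the highest over its alternatives, the lowest being 0.00648). In aged kidneys Tef ranged over 9.68 to 9.92 in fasted and 9.35 to 9.97 in ad libitum fed mice, and the difference of 0.20 (SE 0.11) did not pass (adjusted p = 0.341). Without the 3 aged arrays highest in hepatocyte markers, an alternative chosen after seeing the data, it was 0.37 and passed (adjusted p = 0.0326, against 0.0575 to 0.538 with any single array left out).

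Hlf, the remaining PAR bZIP factor and not one of the 10, rose in either age, by 0.43 in aged (SE 0.11, limma adjusted p = 0.0359) and 0.45 in young kidneys (SE 0.09, adjusted p = 0.00516). The young fasted mice (8.91 to 9.29) did not overlap the young ad libitum fed mice (8.47 to 8.83), and the age difference was -0.02 (SE 0.15, adjusted p = 0.978). The aged call held in 2 of the 10 fits that left out 1 aged array (adjusted p 0.00459 to 0.0882), and the young call in 9 of 9. Its second probe set gave 0.34 in aged (adjusted p = 0.114) and 0.40 in young kidneys (adjusted p = 0.0128).

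Per2, the period gene with the strongest rhythm in most tissues, had 4.96, 6.14, 6.14 and 5.84 in young fasted mice, against 5.31, 5.37, 5.13, 5.33 and 5.36 in young ad libitum fed mice (probe set 1417602_PM_at). The ad libitum fed mice lay within 0.24 log2 units of each other, while 3 fasted mice were above them and the fasted mouse 339 was below them. The log2 difference of 0.47 (SE 0.20, interval 0.03 to 0.92) did not pass (limma adjusted p = 0.138). Without mouse 339 it was 0.74 and passed (adjusted p = 0.000327, the lowest over its alternatives, the highest being 0.390). In aged kidneys Per2 was 5.84, 7.10, 6.19, 6.81 and 7.09 in fasted mice, against 7.38, 5.53, 6.55, 6.07 and 5.79 in ad libitum fed mice, a difference of 0.34 (SE 0.33, adjusted p = 0.665). The highest value belonged to the ad libitum fed mouse 34, and the groups overlapped widely. The dimmer probe set of Per2, 1417603_PM_at, gave 0.04 in young (limma adjusted p = 0.836) and 0.26 in aged kidneys (adjusted p = 0.127).

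Per3, a period gene that is dispensable for the rhythm itself, lay just on the other side of the threshold in young kidneys at its brightest probe set (1421087_PM_at). Its level was 6.02, 6.43, 6.16 and 6.49 in young fasted mice, against 5.66, 5.85, 5.91, 5.63 and 6.25 in young ad libitum fed mice, a difference of 0.42 (SE 0.13, limma adjusted p = 0.0502). Of its other 4 probe sets, 1442243_PM_at rose by 0.73 (SE 0.22, adjusted p = 0.0350), and the other 3 gave 0.33, 0.15 and 0.01 without passing. In aged kidneys the brightest probe set gave 0.28 (SE 0.22, adjusted p = 0.572), and the ad libitum fed mouse 34 had the highest level of all aged mice, 6.95.

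The cryptochromes, the partners of the Per proteins in repression, did not pass in either age. Cry2 (probe set 1426383_PM_at) was 6.26, 6.94, 6.19 and 6.19 in young fasted mice, against 5.81, 6.10, 6.05, 5.91 and 6.11 in young ad libitum fed mice. The groups did not overlap, yet the gap was small and mouse 340 stood apart, and the difference of 0.39 (SE 0.14) had a limma adjusted p of 0.0824. Together with Per1, Dbp and Bhlhe40 this makes 4 of 9 genes whose young groups did not overlap, against 21.3% of all genes, while 0 of 9 did so in aged kidneys, against 10.2%. Cry2 in aged kidneys (0.13, SE 0.17, adjusted p = 0.763) and Cry1 in either age (probe set 1433733_PM_a_at, 0.36, SE 0.34, adjusted p = 0.652 in aged and -0.13, SE 0.11, adjusted p = 0.478 in young kidneys) also did not pass. Cry1 was the dimmest member, near the middle of all probe sets, and in aged kidneys it ranged over 3.25 to 4.92 in fasted and 3.03 to 4.40 in ad libitum fed mice.

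Nr1d2, the nuclear receptor that represses Arntl, showed the smallest differences of the 9 genes at a high level (probe set 1416958_PM_at). It ranged over 9.14 to 9.54 in aged fasted and 9.18 to 9.78 in the aged mice with food, and over 10.36 to 10.56 in young fasted and 10.13 to 10.58 in young ad libitum fed mice. The log2 difference was 0.00 in aged (SE 0.12, interval -0.25 to 0.25, limma adjusted p = 0.995) and 0.12 in young kidneys (SE 0.09, interval -0.07 to 0.31, adjusted p = 0.422).

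The other genes of the loop were taken from fixed lists. Of the 4 activators (Arntl, Clock, Npas2 and Arntl2) none passed in aged kidneys in limma, against 9.16% of all genes. An unadjusted limma p of at most 0.05 was found there for 2 of them. In young kidneys the share that passed was 25%, near the 23.2% of all genes, and came from 1 gene that fell. That gene was Arntl, at 6.63, 6.17, 6.43 and 6.73 in young fasted mice, against 6.98, 7.06, 7.14, 6.68 and 6.73 in young ad libitum fed mice. The fasted mice were lower on the whole, with overlap in the 2 lowest ad libitum fed mice, and the difference of -0.43 (SE 0.13, adjusted p = 0.0344) passed in 4 of the 9 fits that left out 1 array (-0.51 to -0.32, adjusted p 0.0229 to 0.0952). In aged kidneys Arntl differed by 0.50 (SE 0.37, adjusted p = 0.539). At its brightest probe set Clock gave 0.32 in aged (SE 0.12, adjusted p = 0.165) and -0.15 in young kidneys (SE 0.06, adjusted p = 0.113), and neither its age difference of 0.47 nor that of Arntl, 0.93, passed (adjusted p = 0.104 and 0.367). The other 3 probe sets of Clock gave 0.23, 0.08 and 0.11 in aged and 0.14, 0.17 and 0.16 in young kidneys without passing, with age differences of 0.09, -0.09 and -0.04, so that its probe sets disagree on the direction in young kidneys. The second probe set of Arntl gave -0.34 in young kidneys (adjusted p = 0.241).

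Ciart (CHRONO), an E-box driven repressor of the activators, rose in young kidneys from a low level. Its mean over the young arrays lay at the 38.5th percentile of all probe sets. The level was 3.71, 4.23, 3.78 and 4.24 in young fasted mice, against 3.26, 3.31, 3.04, 3.34 and 3.00 in young ad libitum fed mice. The groups did not overlap and the difference of 0.80 (SE 0.12, limma adjusted p = 0.000965) passed in all 9 fits that left out 1 array, though not when 1 spread was shared by all 19 arrays (adjusted p = 0.0988, the highest over its alternatives, the lowest being 0.000209). In aged kidneys the same gene ran over 4.36 to 5.43 in fasted and 3.59 to 6.13 in ad libitum fed mice, a difference of 0.05 (SE 0.37, adjusted p = 0.966). Of the other 3 repressors and partners Timeless fell in young kidneys (-0.35, limma adjusted p = 0.0286). This call was kept in 4 of 9 fits that left out 1 array. Bhlhe41 and Tipin did not pass. Of these 4 genes with Ciart, 50% passed in young kidneys, against 23.2% of all genes, and 0% in aged kidneys, against 9.16%. Of the measured ROR and E4BP4 genes (Rora, Rorb and Nfil3) none passed in limma in either age, with 0 in aged and 2 in young kidneys at an unadjusted p of at most 0.05. Nfil3, the D-box repressor, differed by 0.56 in aged (SE 0.36, adjusted p = 0.455) and -0.38 in young kidneys (SE 0.17, adjusted p = 0.153). Of 7 kinases and ubiquitin ligases that set the stability of Per and Cry proteins, Fbxw11 passed. It fell in young kidneys (-0.40, SE 0.06, limma adjusted p = 0.000845). That is 14.3% of the 7 in young kidneys, against 23.2% of all genes. In aged kidneys 0% of the 7 passed, against 9.16% of all genes.

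**Figure D3:**
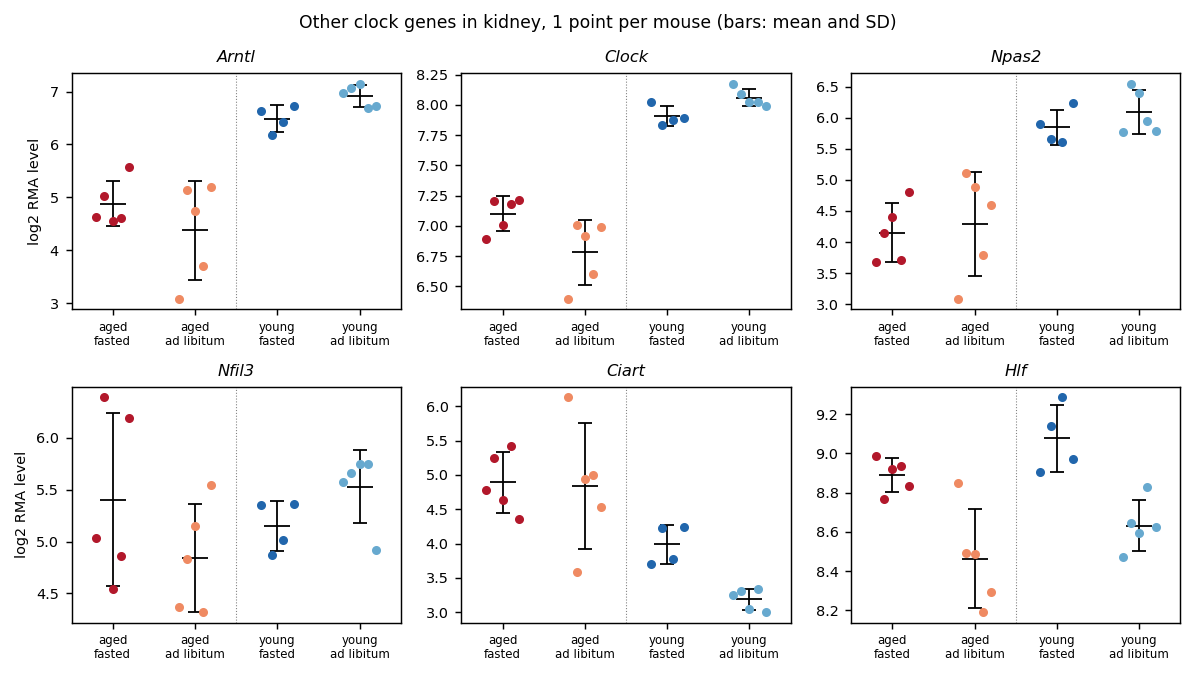
Level of the other genes of the clock loop on the log2 scale (y axis) in each mouse, with the group mean and SD, for the 4 groups. Ciart and Hlf were higher in every young fasted mouse than in any young ad libitum fed mouse, and the aged ad libitum fed mice spread over more than 2 log2 units for Ciart, Arntl and Npas2.

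In young kidneys the genes that passed thus included Per1, Dbp, Tef, Hlf and Ciart, which were higher. The activator Arntl was lower, and so was Bhlhe40. With single arrays left out, the Arntl call held in 4 of 9 fits and the Tef call in 8 of 9. The other measured members, Per2 (0.47), Per3 (0.42), Cry2 (0.39), Cry1 (-0.13) and Nr1d2 (0.12), did not pass at their brightest probe sets. Promoter windows from both arms of the loop are shown because the arms are driven through different sequences. They come from RefSeq (GRCm38.p6, 250 bases before to 50 bases after a transcript start, read on the gene's strand), and windows were found for 8 of the 10 listed genes, 10 windows in all. The motifs were searched on both strands: the E-box CACGTG, the D-box TTATGTAA or TTACGTAA, the RORE TAGGTCA, the cAMP response element TGACGTCA and the glucocorticoid response element. The E-box was present in 4 of the 10 windows, 1 of Per1, 1 of Cry1 and 2 of Tef, against 7.15% of 32851 promoter windows. The D-box was present in 1, that of Per3, which held 2 copies, against 1.06% of all windows. The other motifs were found in 0 of the 10, against 2.61%, 1.79% and 0.475% of all windows for the RORE, the cAMP response element and the glucocorticoid response element. A match is a description of the letters in these windows and not a measured binding site. In the sequences below the capitals mark the E-box in Per1, Tef and Ciart, the D-boxes in Per3 and the RORE in Arntl.
Per1 (chr11:69098699-69098998, plus strand): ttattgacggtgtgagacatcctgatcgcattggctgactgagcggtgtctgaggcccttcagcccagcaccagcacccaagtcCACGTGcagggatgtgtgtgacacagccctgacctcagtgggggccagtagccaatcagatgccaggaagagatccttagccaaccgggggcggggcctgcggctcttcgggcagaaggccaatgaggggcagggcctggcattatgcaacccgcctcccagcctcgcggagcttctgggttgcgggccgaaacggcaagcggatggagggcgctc
Tef (chr15:81802423-81802722, plus strand): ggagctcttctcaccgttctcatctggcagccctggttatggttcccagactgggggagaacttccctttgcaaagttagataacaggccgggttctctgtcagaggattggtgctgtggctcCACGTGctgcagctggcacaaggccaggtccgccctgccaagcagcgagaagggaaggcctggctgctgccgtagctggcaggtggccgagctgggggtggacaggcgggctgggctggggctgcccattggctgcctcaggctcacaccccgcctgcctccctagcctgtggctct
Ciart (chr3:95882179-95882478, minus strand): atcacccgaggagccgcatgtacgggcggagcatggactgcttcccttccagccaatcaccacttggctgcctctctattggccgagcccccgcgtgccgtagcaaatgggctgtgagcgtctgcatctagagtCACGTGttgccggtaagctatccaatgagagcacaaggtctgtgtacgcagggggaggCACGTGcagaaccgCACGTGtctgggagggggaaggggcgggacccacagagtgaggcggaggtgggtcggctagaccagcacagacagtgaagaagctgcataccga
Per3 (chr4:151044616-151044915, minus strand): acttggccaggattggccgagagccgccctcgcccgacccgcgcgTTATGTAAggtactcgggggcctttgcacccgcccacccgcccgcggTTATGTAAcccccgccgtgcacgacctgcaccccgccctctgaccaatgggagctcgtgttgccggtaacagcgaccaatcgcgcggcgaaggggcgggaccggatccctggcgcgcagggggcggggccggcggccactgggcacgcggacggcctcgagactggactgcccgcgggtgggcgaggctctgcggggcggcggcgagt
Arntl (chr7:113207261-113207560, plus strand): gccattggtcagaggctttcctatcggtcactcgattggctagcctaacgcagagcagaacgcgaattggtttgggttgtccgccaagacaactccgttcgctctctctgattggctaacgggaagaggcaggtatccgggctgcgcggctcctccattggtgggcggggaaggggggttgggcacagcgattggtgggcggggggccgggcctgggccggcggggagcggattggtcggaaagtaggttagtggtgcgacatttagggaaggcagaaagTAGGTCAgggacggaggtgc

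Outside the 10 genes, the Ciart window held 3 E-boxes, and the second start of Arntl and the start of Nfil3 each had a RORE, the element on which the Rev-erb repressors act. The Hlf window had 1 cAMP response element. The first start of Arntl and all windows of Clock and Npas2 had no match. Among the listed genes, Dbp, whose known E-boxes lie partly in introns, Cry2, Nr1d1 and Nr1d2 had no match to any of the 5 motifs. The second window of Per1 had no match either. This says nothing of sites outside the windows.

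Some of the clock genes, Dbp in each group, were among the transcripts that varied most between mice of 1 group. Among the aged ad libitum fed mice the SD was 1.00 for Dbp, 0.94 for Arntl, 0.92 for Ciart, 0.84 for Npas2 and 0.73 for Per2, against a median of 0.17 over the probe sets in the upper 60% of mean level. Each of these 5 SDs was at or above the 99.6th percentile of those probe sets. In the young ad libitum fed mice Dbp again was high (SD 0.48, percentile 99.6), while Per2 (SD 0.10) and Clock (SD 0.07) were below the median of 0.12. In aged fasted mice the SD of Hlf, Tef, Cry2 and Clock lay between the 18.2nd and the 49.1st percentile. In the fasted groups Dbp had an SD of 0.72 in aged and 0.48 in young mice, and Per1 0.58 in aged and 0.43 in young mice, each at about the 97.9th percentile or above.

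The spread had a direction that was shared between some of the genes. The aged ad libitum fed mouse 34 had the highest Dbp (9.23), Per2 (7.38), Per3 (6.95) and Ciart (6.13) of its group and the lowest Arntl (3.09), Npas2 (3.09) and Clock (6.40). Mouse 36 of the same group had the lowest Dbp (6.74) and Ciart (3.59) and a high Arntl (5.14). Among the aged fasted mice, mouse 42 had the lowest Dbp (6.97) and the highest Arntl (5.57). The same mouse 42 had the highest Per1 (8.43), Cry1 (4.92) and Cry2 (5.88) of its group, so these genes were high together with Arntl. Mice of 1 group thus stood at opposite ends for Dbp and Arntl, while not all Per and Cry genes went with Dbp.

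**Figure D4:**
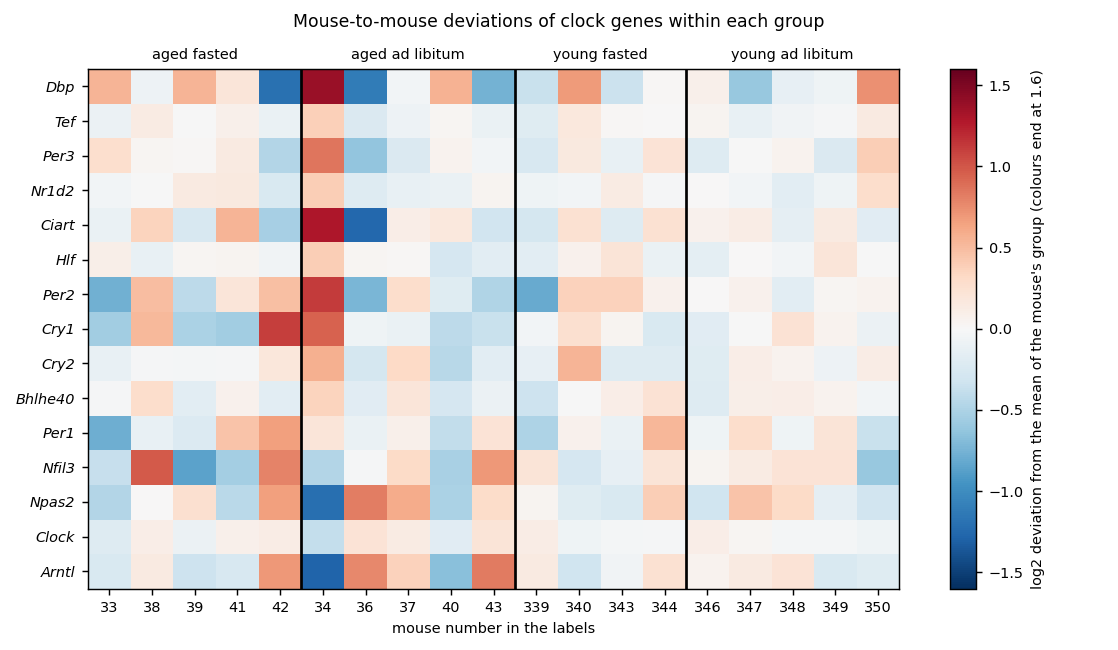
Deviation of each mouse (x axis, by its number in the labels) from the mean of its own group on the log2 scale, for 15 clock genes (y axis). Red squares are above and blue squares below the group mean. Mouse 34 is red for Dbp, Per3 and Ciart and blue for Arntl, Npas2 and Clock, and mouse 36 shows the reverse.

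Across the 19 mice, as deviations from the group means, Arntl ran against Dbp with a Pearson r of -0.89 (permutation p = 6.0e-05 within groups with 100000 resamples, 9.6e-04 after Benjamini-Hochberg adjustment over 16 relations) and a Spearman rho of -0.81 (adjusted permutation p = 0.0039). The r was -0.83 without the 2 mice farthest in Dbp, -0.95 over the 10 aged mice and -0.62 over the 9 young mice. Clock (r -0.82), Npas2 (-0.80) and the D-box repressor Nfil3 (-0.68) also ran against Dbp (permutation p = 6.3e-04, 0.00133 and 0.00344, adjusted 0.0025, 0.0043 and 0.0092). Their rho was -0.77, -0.75 and -0.70, and their r without the 2 farthest mice -0.76, -0.67 and -0.61. Over the aged mice their r was -0.89, -0.86 and -0.67, and over the young mice -0.52, -0.55 and -0.74. Per3 (r 0.84) and Tef (r 0.79) ran with it (permutation p = 4.3e-04 and 3.9e-04, adjusted 0.0023 for each), at 0.89 and 0.76 over the aged and 0.65 and 0.87 over the young mice. Their rho was 0.79 and 0.78, and their r without the 2 farthest mice 0.73 and 0.70. For Nr1d2 the r of 0.66 (adjusted permutation p = 0.0234) dropped to 0.40 without the 2 farthest mice, and its rho of 0.49 did not pass (adjusted permutation p = 0.111), so the relation rests on those mice. Ciart had an r of 0.71 (adjusted permutation p = 0.0234) that was 0.80 over the aged and 0.20 over the young mice. Without the 2 farthest mice it was 0.52, and the rho of 0.59 for Ciart did not pass (adjusted permutation p = 0.0565).

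Per1 and Bhlhe40, the 2 genes whose fasting effects differed between the ages, had no relation with Dbp that passed. The r was -0.33 for Per1 and 0.29 for Bhlhe40 (adjusted permutation p = 0.318 and 0.378), and Per2, Cry1, Cry2 and Hlf did not pass either. The median of 7 hepatocyte markers had an r of 0.51 with Dbp (adjusted permutation p = 0.117), and it was 7.67 in mouse 34, 6.21 in mouse 36 and 10.7 in the aged fasted mouse 33. The median of 6 brown adipocyte markers had an r of -0.24 (adjusted permutation p = 0.420). The part of liver RNA in the clock values was not tested.

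In young kidneys the brown adipocyte markers moved with the diet. The median level of the 6 markers was 7.33, 6.22, 6.68 and 3.79 in fasted mice, against 3.62 to 4.28 in ad libitum fed mice. The fasted mouse 344 was thus within the ad libitum fed range. In that mouse Per1 was 7.97, Dbp 6.70, Ciart 4.24 and Bhlhe40 8.05, each outside the ad libitum fed range. This is 1 array, and the part of the fat markers in the clock values was not tested. The hepatocyte marker median of young mice was 7.61 to 8.78 in fasted and 6.72 to 8.47 in ad libitum fed mice. In aged mice it was 5.41 to 10.7 in fasted and 5.50 to 7.93 in ad libitum fed mice.

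The transcripts most like Dbp and Per1 in these deviations were sought among 11794 genes in the upper 60% of level, by Pearson r over the 19 arrays and as a description without a test. For Dbp they were Slc22a4 (a transporter of organic cations, r 0.90), Gstt2 (a glutathione transferase, 0.89), the kinase Map3k12 (0.87), the ubiquitin ligase Rnf170 (0.85) and Per3 itself (0.84). For Per1 they were Gm26588 (0.95), Gramd1b (0.89), Rbm47 (0.88), Fam117b (0.87) and Tob2 (0.87), none of them a gene of the clock lists. The points share the arrays and their normalization, and the 2 lists had no gene in common.

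Outputs of the clock that cycle in many tissues rose in 6 of 8 measured cases in young kidneys and in 2 of 8 in aged kidneys, and none fell, where 10.7% of all genes rose in young and 4.32% in aged kidneys. Their median log2 fold change was 0.37 in aged and 0.49 in young kidneys. Noct (nocturnin), a rhythmic phosphatase of metabolic cofactors, was 7.25, 8.03, 7.60, 9.03 and 9.50 in aged fasted mice, against 7.07, 6.72, 6.83, 6.99 and 6.94 in aged ad libitum fed mice. In young mice it was 8.20, 9.17, 9.42 and 9.34 after fasting, against 7.15, 7.30, 6.78, 7.08 and 6.82 with food. The groups did not overlap in either age, at 1.37 in aged (SE 0.35, limma adjusted p = 0.0349) and 2.01 in young kidneys (SE 0.22, adjusted p = 8.54e-05). The aged call held in 3 of the 10 fits that left out 1 aged array (adjusted p 0.00831 to 0.0924), although the log2 fold change was never below 1.07. Lonrf3 rose in aged (0.91, SE 0.15, adjusted p = 0.00334) and young kidneys (0.72, SE 0.10, adjusted p = 0.00031) with any single array left out, although its second probe set gave 0.14 and -0.12 without passing.

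Cirbp, the cold-induced RNA-binding protein whose rhythm follows body temperature, was 7.65, 7.59, 8.04, 7.75 and 6.52 in aged fasted mice, against 7.26, 6.94, 6.79, 7.27 and 6.71 in aged ad libitum fed mice. In young mice it was 8.87, 9.15, 8.50 and 8.88 after fasting, against 6.60, 7.06, 6.80, 7.02 and 7.39 with food. The young groups were separated by more than 1 log2 unit, while the aged groups overlapped through the fasted mouse 42. The rise was 1.88 in young kidneys (SE 0.16, limma adjusted p = 1.38e-05) and 0.52 in aged kidneys (SE 0.23, adjusted p = 0.254). The effects differed by -1.36 (SE 0.31, adjusted p = 0.0266, 0.0134 to 0.0871 over all alternatives). Its relative Rbm3 did not pass in either age (0.39 in aged and -1.02 in young kidneys, adjusted p = 0.298 and 0.172). Wee1 (0.47), Tspan4 (0.52) and Tsc22d3 (0.33) also rose in young kidneys (adjusted p = 0.00508, 0.00196 and 0.0457). For Wee1 the second probe set gave 0.05, and the call for Tsc22d3 held in 3 of 9 fits that left out 1 array.

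Among 8 clock-controlled genes of renal transport and hormone response, 5 passed in young kidneys, 4 lower and 1 higher, against 23.2% of all genes. In aged kidneys 1 of the 8 (12.5%) passed, a share near the 9.16% of all genes. The vasopressin receptors Avpr1a (-0.89, SE 0.13, limma adjusted p = 0.000674) and Avpr2 (-0.66, SE 0.12, adjusted p = 0.00217), the water channel Aqp2 (-0.53, SE 0.15, adjusted p = 0.0253) and the sodium-proton exchanger Slc9a3 (-0.34, SE 0.07, adjusted p = 0.00391) fell. The kinase Sgk1 rose by 0.61 (SE 0.18, adjusted p = 0.0302, kept in 3 of 9 fits that left out 1 array, as against 5 of 9 for Aqp2). In aged kidneys the sodium channel subunit Scnn1a rose by 0.53 (SE 0.14, adjusted p = 0.0388, kept in 3 of 10 such fits). The effect on Avpr1a differed between the ages by 0.97 (SE 0.17, adjusted p = 0.00478), with 0.08 in aged kidneys, and its second probe set gave 0.83 without passing (adjusted p = 0.0732).

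**Figure D5:**
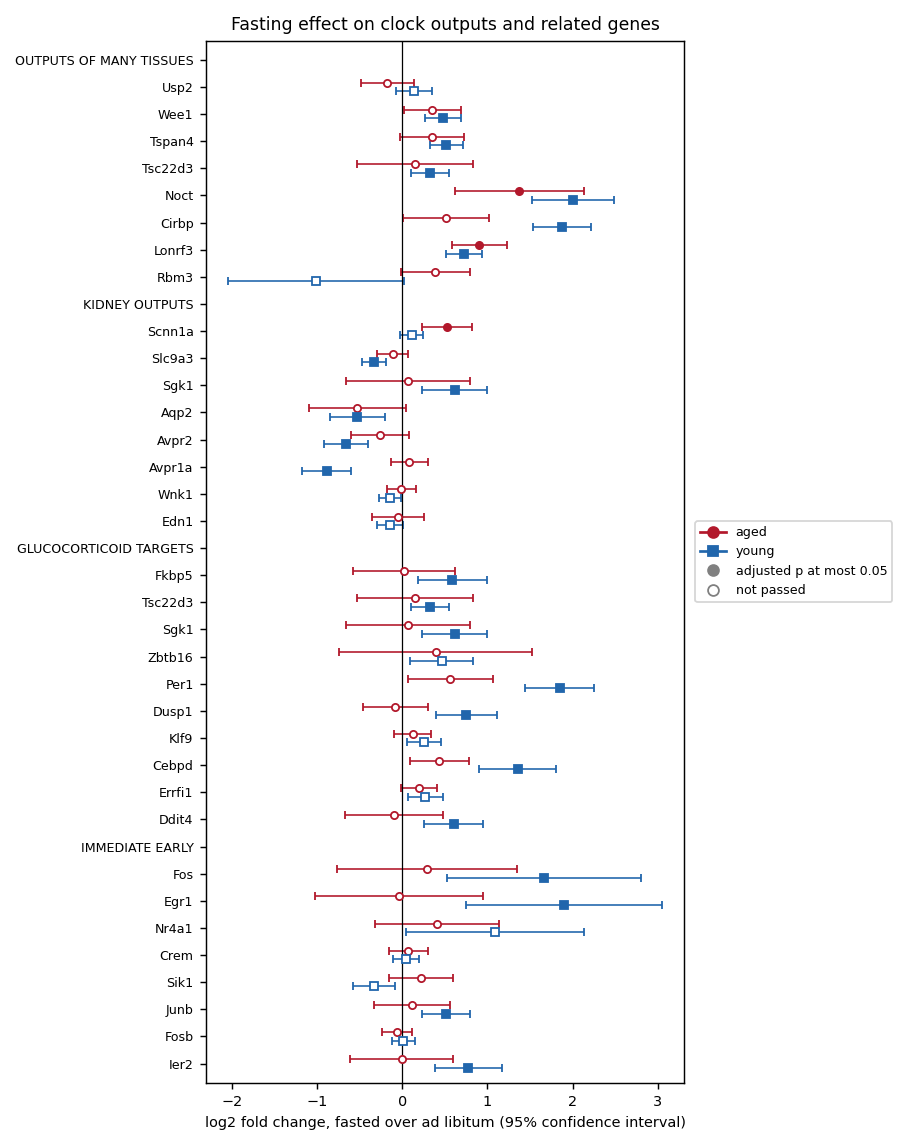
Log2 fold change of fasted over ad libitum fed kidneys (x axis, with its 95% confidence interval) for clock outputs of many tissues, clock-controlled kidney genes, glucocorticoid targets and immediate early genes, aged mice as red circles above young mice as blue squares, filled where the adjusted p was at most 0.05. Noct and Lonrf3 passed in both ages, and Per1, Cirbp and Cebpd lay further from 0 in young than in aged kidneys.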

How the data were processed

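Kidney RNA of 19 mice was read on 1 array each. The authors deposited log2 values made by background correction and normalization with the RMA algorithm, whose software versions are not given in the sources used here, in 1 table of 45141 probe sets. Of these, 28898 carry 1 gene symbol in the platform annotation, 551 several and 15692 were not listed there, and taking the brightest single-symbol probe set of each gene gave 17097 genes. The number of arrays limits the precision.

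The limma package 3.58.1 in R 4.3.3 was fitted to the deposited log2 values of the aged and of the young arrays separately, and the difference between the fasting effects came from 1 fit of all 19 arrays. The Benjamini-Hochberg adjustment ran over every probe set, with a threshold of 0.05 and no filter on low values. Relations between genes were tested by permutation of mice within groups (100000 resamples). The scripts were tested on simulated data. Each replicate is a separate mouse.

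The members and the gene lists were chosen with earlier results of these data known. By rule, the genes that may be named are the members at each probe set and the listed genes at their brightest one, with the 5 genes most like Dbp and like Per1. Alternatives were an ordinary test, a variance trend with robust fitting, array weights, quantile normalization within age, centring on medians, removal of the lowest 40% of probe sets, the mean of a gene's probe sets, 1 fit of all arrays, and leaving out each array. Some listed genes are not reported here.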

Additional observations from a re-analysis of the deposited data

Results flagged for a closer look

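Within groups, 4 of 60 sets of mice (15 genes in 4 groups) held a mouse that stood apart by Dixon's criterion, which chance alone meets in about 1 in 20. Cry2 was 6.94 in the young fasted mouse 340, with a gap of 0.904 of the group's range to the next mouse. Nfil3 was 4.92 in the young ad libitum fed mouse 350 (gap 0.790 of the range), Cry1 4.40 in the aged ad libitum fed mouse 34 (0.746) and Per2 5.13 in the young ad libitum fed mouse 348 (0.721).

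The fasting effect differed between aged and young mice in limma for Bhlhe40 (1.52, aged minus young), Per1 (-1.28), Cirbp (-1.36) and Avpr1a (0.97). Strain, age and weight changed together between these mice, and their parts cannot be told apart.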

How the results depend on the processing

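No paired analysis was possible because the mouse numbers in the labels are unique and shared by no groups. The count of clock genes past the test in aged kidneys, 1, was 0 in the ordinary test and 0 with a fold change of at least 1.5 required as well, and ran over 0 to 1 with single arrays left out. Without mouse 33 that 1 gene was Per1, not Bhlhe40, and without the 3 aged arrays highest in hepatocyte markers (33, 34 and 40, chosen after seeing the data) it was Tef. The young count of 4 stayed between 3 and 6. The count of age differences, 2, was 1 in the ordinary test, 1 with a variance trend and robust fitting and 1 without those 3 arrays, and 1 to 2 with single arrays left out; each time the gene kept was Bhlhe40. The cause of these changes was not tested.

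Signs turned for differences that had not passed and, for Tef, Lonrf3 and Fkbp5, which had passed, at another probe set. In aged kidneys Nr1d2 was -0.0045 after centring and -0.048 to 0.10 with single arrays left out, and another Per3 probe set gave -0.017. In young kidneys other probe sets gave -0.19 (Tef), -0.030 (Nr1d2), -0.12 (Lonrf3) and -0.017 (Fkbp5). The age difference turned to 0.041 (Per2), 0.090 (Tef) and 0.035 (Nr1d2) for the mean of the probe sets, to 0.21, 0.29 and 0.19 for their dimmer probe sets, and to 0.37 (Per2), 0.10 (Per3) and 0.059 (Tef) without the 3 arrays. With single arrays left out it ran over -0.40 to 0.15 for Per2 and -0.29 to 0.082 for Per3.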

Other observations

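Genes that glucocorticoids induce, a list that holds Per1 and shares Tsc22d3 and Sgk1 with the lists above, rose in 7 of 10 cases in young kidneys and in 0 of 10 in aged kidneys in limma, against 10.7% of all genes in young and 4.32% in aged kidneys. In aged kidneys 2 of the 10 had an unadjusted p of at most 0.05. Their median log2 fold change was 0.13 in aged and 0.59 in young kidneys. Cebpd, a transcription factor of the acute phase, had the largest change after Per1, 1.35 in young (SE 0.21, adjusted p = 0.000875) and 0.44 in aged kidneys (SE 0.16, adjusted p = 0.151). Dusp1, a phosphatase that limits MAP kinases, rose by 0.75 (adjusted p = 0.00732) and Ddit4, an inhibitor of mTORC1, by 0.60 (adjusted p = 0.0198) in young kidneys. Fkbp5, a chaperone of the glucocorticoid receptor, rose by 0.59 (adjusted p = 0.0462). The calls for Tsc22d3, Sgk1 and Fkbp5 were each lost with several single arrays left out, the call for Ddit4 held in 7 of 9 such fits, and Per1 was the 1 gene of the list with a difference between the ages that passed.

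Of 8 immediate early genes, 4 rose in young kidneys (Fos 1.66, Egr1 1.90, Junb 0.51 and Ier2 0.77, adjusted p = 0.0441, 0.0254, 0.0171 and 0.0102) and 0 passed in aged kidneys in limma, with 0 at an unadjusted p of at most 0.05, where 10.7% of all genes rose in young and 4.32% in aged kidneys. With single arrays left out the call held in 2 of 9 fits for Fos (1.10 to 2.19, the lowest without mouse 344) and in 3 of 9 for Egr1, and in 9 of 9 for Junb and Ier2. The young fasted and ad libitum fed mice overlapped for each of the 8.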
